A study of Homo sapiens with 6 samples.

Results

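The MYC, MAX and MXD network was described by messenger RNA level in a pair of cybrid lines. Its members were taken as every probe set that the platform table assigns to a single one of 10 gene symbols, MYC, MYCN, MAX, MXD1, MXI1, MXD3, MXD4, MNT, MLX and MGA. This gave 33 of the 54613 probe sets tested, from 9 of the 19775 genes with a single symbol. MXD4 had none, since its 3 probe sets also name the microRNA gene MIR4800, and no value is given for it. Of the 33 probe sets, 10 belonged to MYCN, 6 to MLX, 5 to MAX, 4 to MGA, 3 to MXD1 and 2 to MNT, while MYC, MXI1 and MXD3 had 1 each.

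The series holds 6 Affymetrix HG-U133 Plus 2.0 arrays. They fall into 3 extracts of 10A/143B, whose mitochondria derive from MCF10A, a non-cancerous breast epithelial line, and 3 of 468/143B, whose mitochondria derive from the metastatic breast cancer line MDA-MB-468. In both, the nucleus is that of 143B p0, an osteosarcoma line depleted of mitochondrial DNA. Donor cells were enucleated with actinomycin-D and fused by polyethylene glycol, and hybrids were selected with bromodeoxyuridine in medium lacking uridine, conditions that both lines share. The labels name each array by its mitochondrial donor and, in another field, by its cybrid, and the protocol says that RNA was extracted from the cybrids in triplicate. Whether a line was 1 clone or a pool is not stated in the labels, so a difference between the lines cannot be told apart from a difference between the fusions that made them.

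MYC and MYCN are transcription factors of the basic helix-loop-helix leucine zipper class that bind DNA only as a dimer with MAX, at a short element called the E-box, and raise transcription of genes for ribosome assembly, metabolism and cell division. MXD1, MXI1, MXD3, MXD4 and MNT compete for MAX, bind the same element and recruit SIN3 corepressors, and MGA brings MAX into a polycomb repressive complex. MLX is a second dimer hub, which pairs with the glucose-responsive factors MLXIP and MLXIPL and with some of the antagonists. The network has been studied most as a driver of growth, because MYC is among the oncogenes most often raised in tumours, osteosarcoma included.

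Values are linear intensities as deposited, and differences are 10A/143B minus 468/143B on the scale log2(intensity + 16), each with its standard error (SE) from the model of 3 arrays per group. Median intensities were 21.6 to 24.4 for the 10A/143B arrays and 20.3 to 21.3 for those of 468/143B, and the median probe set had a mean corresponding to an intensity of 21.7. Replicates 2 and 3 were near duplicates in both lines. Over 9187 bright probe sets the SD of their log2 difference was 0.08 in 10A/143B and 0.09 in 468/143B, while pairs that include replicate 1 gave 0.26 to 0.29. Nothing in the labels says that the extracts came from separate cultures, so a p-value here may reflect technical scatter alone, and each member's call and each gene list's counts are also given with replicates 2 and 3 averaged to 1 sample. For other genes called by their brightest probe set, the averaged p is given where it ended the call. ACTB probe sets at the 3′ end read 1.59 to 1.92 times those at the 5′ end on 10A/143B arrays, a sign of RNA integrity, and 1.18 to 1.67 times on 468/143B arrays, lowest on replicate 1 of 468/143B.

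MYC mRNA was much lower in 10A/143B. Its probe set, 202431_s_at, read 109.1, 121.9 and 118.6 in replicates 1, 2 and 3 of 10A/143B, against 652.6, 568.1 and 596.3 in those of 468/143B. The groups lay far apart, and within each the arrays differed little. On the log2 scale the levels were 7.05 ± 0.07 in 10A/143B and 9.28 ± 0.10 in 468/143B (SD, n = 3 each). MYC was thus 4.69-fold lower in 10A/143B (difference -2.23 ± 0.10, adjusted p = 5.306e-06, and 0.000665 with replicates 2 and 3 averaged). It had the largest difference of the 33 member probe sets, and ranked 25th from the lowest of the 19775 genes, each taken by its brightest probe set. MYC is represented by this 1 probe set, so no further measurement of its mRNA was at hand. As in any bulk sample, fewer cells with the transcript and less of it per cell cannot be told apart.

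MYCN, the paralogue of neural and embryonic tissue, was dim. Of its 10 probe sets, 9 had means below that of the median probe set, and their intensities on single arrays ran from 1, the lowest value of the file, to 19.2. The brightest, 242026_at, read 57.7, 5.24 and 8.51 in 10A/143B and 28.1, 34.3 and 40.2 in 468/143B. The lines overlapped there through replicate 1 of 10A/143B, and the difference was -0.57 ± 0.43 (adjusted p = 0.404). Without that array it was -1.13 (adjusted p = 0.00457). A pair of dim probe sets passed as lower in 10A/143B, 234872_at (-0.68 ± 0.19, adjusted p = 0.0305) and 234815_at (-0.47 ± 0.14, adjusted p = 0.0348), but neither did so with replicates 2 and 3 averaged (adjusted p = 0.144 and 0.123). With the replicate number as a block 234815_at was also not called (adjusted p = 0.0603). No detection calls were used, so it cannot be said that MYCN is expressed in either line.

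MAX, the partner that MYC needs to bind DNA, differed less, and not in the same direction on all its probe sets. The brightest, 209332_s_at, read 464.6, 487.8 and 526.4 in 10A/143B, against 352.1, 404.5 and 388.0 in 468/143B. All 10A/143B arrays were higher, by 1.28-fold (0.36 ± 0.09, adjusted p = 0.0163). The call ended with replicates 2 and 3 averaged (adjusted p = 0.144), after median centring (0.25, adjusted p = 0.0564) and after quantile normalization (0.26, adjusted p = 0.0624). It also ended without the intensity trend in the variance (adjusted p = 0.0520), and on leaving out replicate 2 or 3 of 10A/143B or replicate 3 of 468/143B (adjusted p from 0.0507 to 0.0825). The next in brightness, 209331_s_at, gave 0.28 ± 0.10 (adjusted p = 0.0767), with 224.4 to 247.3 in 10A/143B and 178.5 to 205.1 in 468/143B. The other 3, at 15.1 to 39.1 in 10A/143B and 21.7 to 75.1 in 468/143B, had differences of -0.52, -0.43 and -0.34, none past the threshold (adjusted p from 0.0817 to 0.3525). MAX has several splice forms, and which of them each probe set reads was not settled here.

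**Figure D1:**
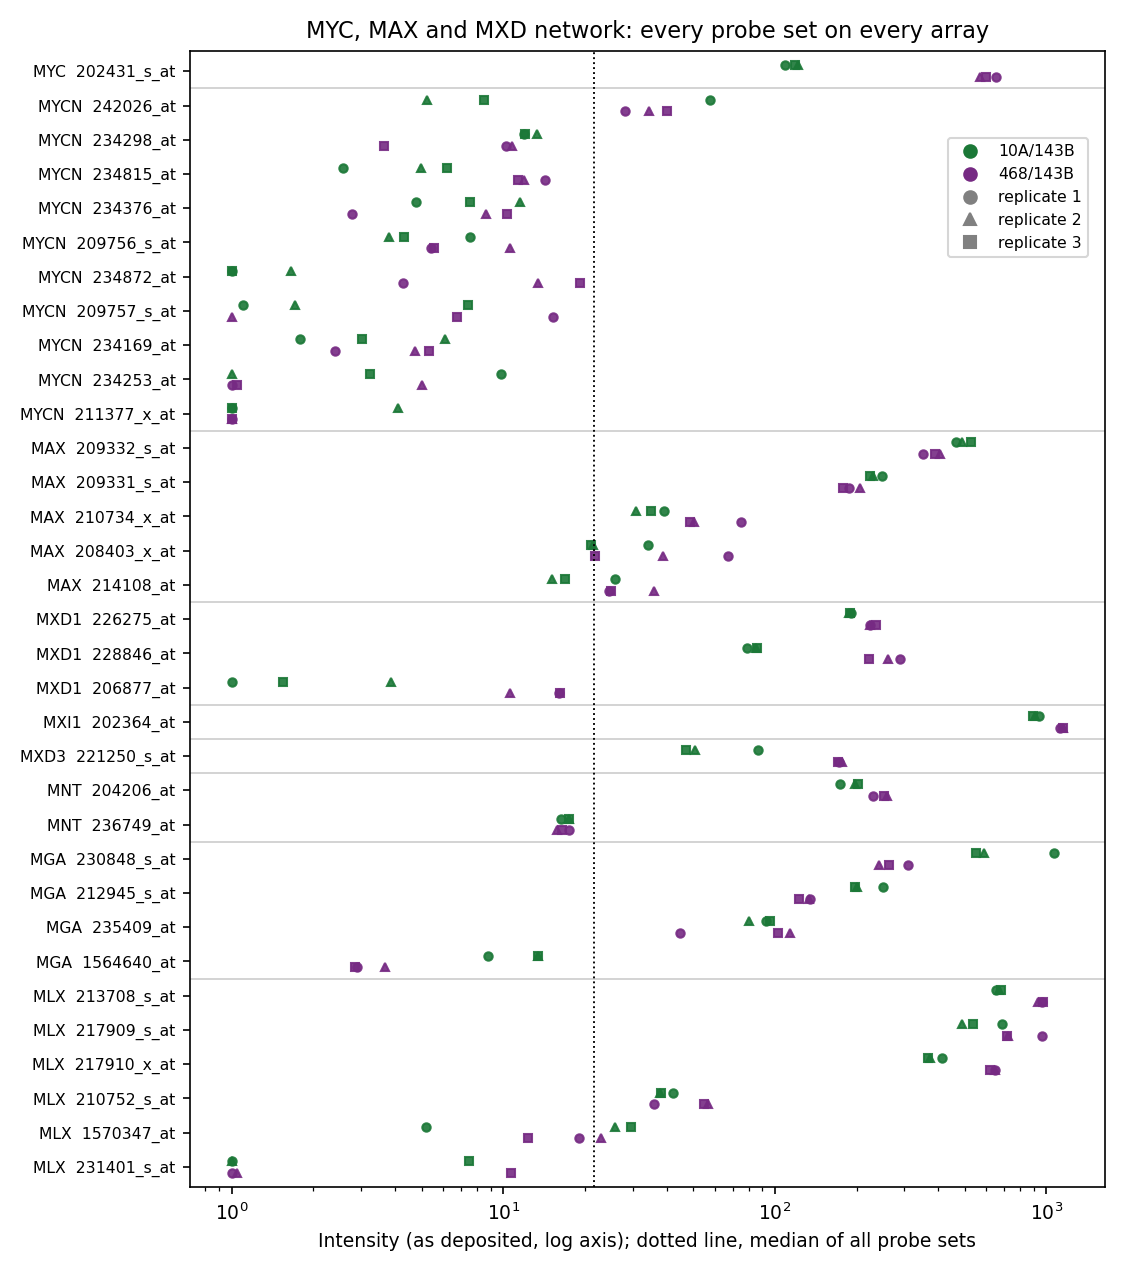
Deposited intensity (log axis) of each of the 33 member probe sets on each of the 6 arrays, green for 10A/143B and purple for 468/143B, with marker shape for the replicate and a dotted line at the median of all probe sets (21.7). MYC lies at 109.1 to 121.9 in 10A/143B and 568.1 to 652.6 in 468/143B, while MGA's brightest probe set lies the other way round and 9 of 10 MYCN probe sets have means left of the line.

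The 3 measured MXD genes, which antagonise MYC, were each lower in 10A/143B on at least 1 probe set. MXD1, which rises when cells differentiate, had 3 probe sets that all lay lower on every 10A/143B array but differed in size. On 228846_at it read 78.8, 85.04 and 85.6 in 10A/143B, against 290.0, 261.4 and 222.9 in 468/143B. That is 2.75-fold lower in 10A/143B (-1.46 ± 0.13, adjusted p = 5.739e-05, 0.00247 averaged). The probe set of highest mean, 226275_at, read 191.3, 187.4 and 188.7 in 10A/143B and 224.4, 224.4 and 235.6 in 468/143B, a difference of -0.25 ± 0.09 that did not pass (adjusted p = 0.0755). The dim 206877_at, at 1 to 3.86 in 10A/143B and 10.6 to 16.1 in 468/143B, did (-0.74 ± 0.14, adjusted p = 0.00461, 0.0253 averaged). The direction for MXD1 was therefore shared by its probe sets, and the size was not.

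MXD3, the family member linked to S phase, read 86.8, 50.9 and 47.2 in 10A/143B, against 172.4, 176.1 and 171.3 in 468/143B. It was 2.50-fold lower in 10A/143B (-1.32 ± 0.19, adjusted p = 9.091e-04, 0.0187 averaged). Replicate 1 was the highest of the 10A/143B arrays and still below every 468/143B array. MXI1, a gene that low oxygen induces, read 935.8, 903.9 and 891.4 in 10A/143B and 1120.6, 1152.1 and 1152.1 in 468/143B. The groups did not overlap, and the shift was small, 1.25-fold lower in 10A/143B (-0.32 ± 0.06, adjusted p = 0.00396, but 0.117 averaged).

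MNT, the antagonist that is expressed in most proliferating cells, read 173.6, 196.7 and 202.3 in 10A/143B and 230.7, 259.6 and 252.5 in 468/143B on 204206_at. It was 1.28-fold lower in 10A/143B (-0.35 ± 0.10, adjusted p = 0.0345). The call was lost on averaging (adjusted p = 0.2305), without the intensity trend (adjusted p = 0.0571) and on leaving out replicate 2 or 3 of either line (adjusted p from 0.0693 to 0.118). Its other probe set, 236749_at, was dim, with 16.3 to 17.4 in 10A/143B and 15.8 to 17.5 in 468/143B, and showed no shift (0.02 ± 0.17, adjusted p = 0.949).

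MGA was the exception among the antagonists and was higher in 10A/143B. It is the largest protein of the network and joins MAX to a polycomb complex that silences germline genes. On 230848_s_at it read 1067.5, 588.1 and 548.7 in 10A/143B, against 308.7, 242.2 and 263.2 in 468/143B. Every 10A/143B array was higher, replicate 1 by far the most, and the difference was 2.51-fold (1.33 ± 0.23, adjusted p = 0.00235, 0.0116 averaged). Without that array it was 1.03 (adjusted p = 5.461e-04). On 212945_s_at MGA read 250.7, 200.9 and 196.7 in 10A/143B and 134.4, 133.4 and 122.8 in 468/143B, 1.58-fold higher in 10A/143B (0.66 ± 0.12, adjusted p = 0.00365, 0.0436 averaged). The dim 1564640_at was higher too (0.54 ± 0.13, adjusted p = 0.0149, but 0.111 averaged), with 8.75 to 13.5 in 10A/143B and 2.85 to 3.66 in 468/143B. On 235409_at the lines overlapped, with 92.4, 80.4 and 95.7 in 10A/143B and 44.6, 113.8 and 102.5 in 468/143B, a difference of 0.11 ± 0.27 (adjusted p = 0.824).

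MLX, the hub of the glucose-sensing branch, was lower in 10A/143B on each of its 3 bright probe sets. On 213708_s_at it read 652.6, 670.9 and 680.3 in 10A/143B, against 962.1, 929.3 and 968.8 in 468/143B. That is 1.42-fold lower in 10A/143B (-0.50 ± 0.06, adjusted p = 4.509e-04, 0.0219 averaged). On 217910_x_at the difference was -0.71 ± 0.08 (adjusted p = 2.113e-04, 0.0119 averaged), with 367.1 to 413.0 in 10A/143B and 621.7 to 648.1 in 468/143B. On 217909_s_at it was -0.48 ± 0.15 (adjusted p = 0.0463, but 0.155 averaged). The 3 dim probe sets did not pass, with differences of -0.22, -0.06 and 0.02.

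The other dimer partners of these hubs were counted as well. MLXIP, or MondoA, the partner through which MLX answers to glucose phosphates, was 1.62-fold higher in 10A/143B (0.70 ± 0.12, adjusted p = 0.00238, but 0.0663 averaged), with mean intensities of 182.2 in 10A/143B and 106.5 in 468/143B. MLXIPL, or ChREBP, its relative of liver and fat, had means of 46.5 in 10A/143B and 15.997 in 468/143B and did not pass (1.01 ± 0.33, adjusted p = 0.0516, 0.119 averaged and 0.0116 with the replicate block). MYCL, the third MYC paralogue, had means of 18.7 in 10A/143B and 20.1 in 468/143B (-0.03 ± 0.23, adjusted p = 0.951). No probe set of MYCN, nor that chosen for MYCL, was called higher in 10A/143B.

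Over the network, 11 of the 33 probe sets passed as lower in 10A/143B, 4 passed as higher and 18 did not pass. Of all probe sets, 10.6% were lower and 17.4% higher, 28.0% in all. With replicates 2 and 3 averaged 6 members were lower and 2 higher, where 15.8% of all probe sets passed in either direction. Among the 19 member probe sets at or above the median level, 8 were lower and 3 higher, beside 49.1% of all probe sets of that brightness called in either direction. The arrays of the lines did not overlap for 19 members, against 40.3% of all probe sets. By brightest probe set, 5 of the 9 genes were lower in 10A/143B (MYC, MXI1, MXD3, MNT and MLX) and 2 higher (MAX and MGA), beside 14.8% lower and 19.1% higher, or 33.9% together, of all genes. With replicates 2 and 3 averaged, MYC, MXD3 and MLX were lower and MGA was higher.

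Set by role, the activators had 3 of 11 probe sets lower and 0 higher in 10A/143B (1 and 0 averaged), and the antagonists 5 of 11 lower and 3 higher (3 and 2 averaged). All 3 higher calls among the antagonists were MGA's, and the lower ones were of MXD1, MXD3, MXI1 and MNT. The median difference over the 33 was -0.25, beside 0.01 over all probe sets. The median difference of all genes was -0.02 as deposited, -0.12 after median centring and -0.07 after quantile normalization. No called member changed sign under either scaling, and each gave 13 lower and 3 higher, ending the call of MAX on 209332_s_at and adding 210734_x_at of MAX and 226275_at of MXD1 as lower. MAX thus had a probe set past the threshold on the higher side as deposited and on the lower side under either scaling. The share of calls over all probe sets that were higher in 10A/143B was 62.2% as deposited, 51.7% after median centring and 52.1% after quantile normalization.

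**Figure D2:**
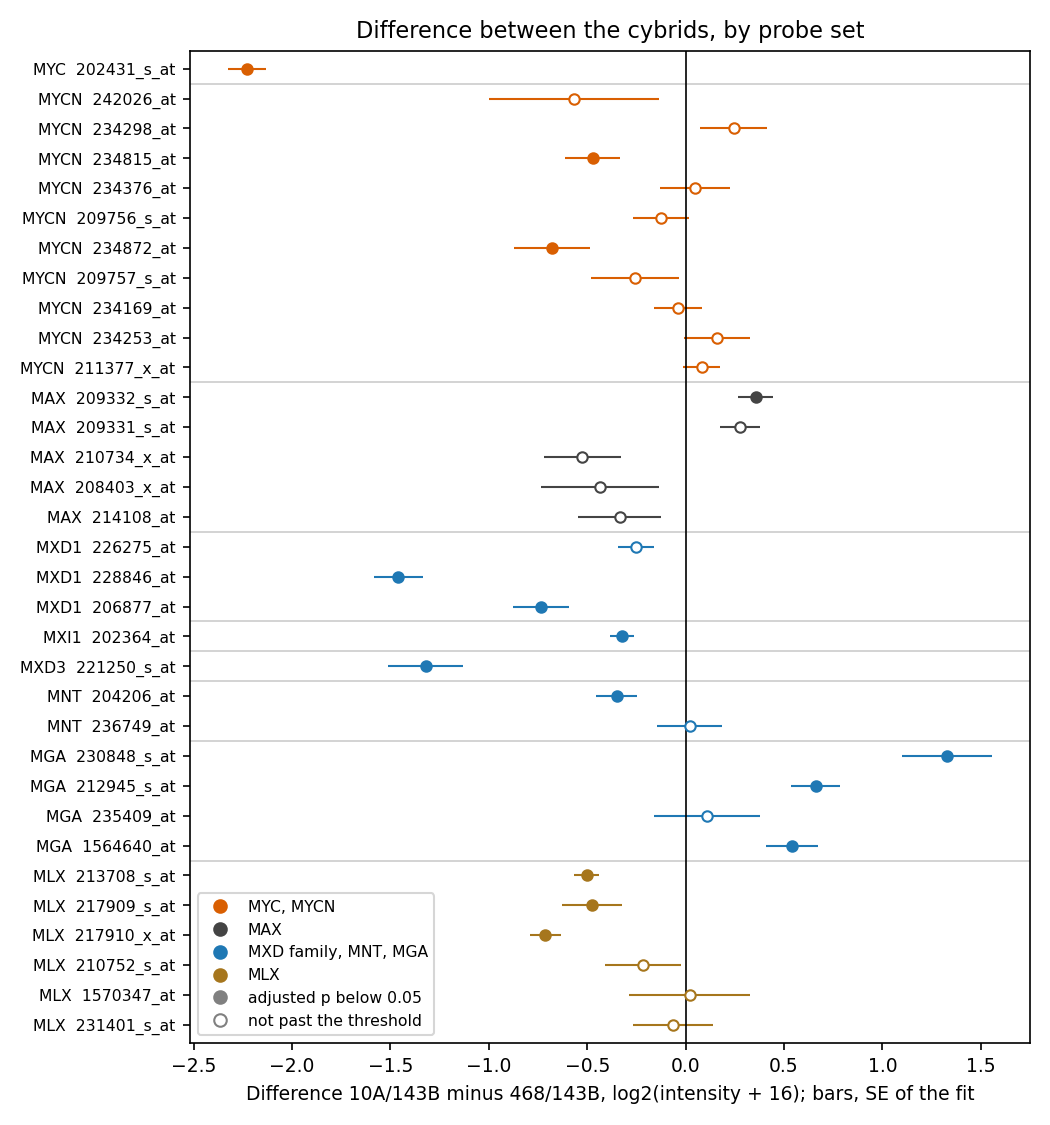
Difference of each member probe set, 10A/143B minus 468/143B on the scale log2(intensity + 16), with bars for the SE of the fit to 3 against 3 arrays, coloured by role and filled where the adjusted p was below 0.05. MYC stands farthest to the left at -2.23, MXD1, MXD3 and MLX have probe sets left of 0 that passed, and MGA's 3 that passed lie right of 0, the farthest at 1.33.

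Members were also set beside the genes next to them on their chromosomes. For the counts below, 14.8% of all genes were lower and 19.1% higher by brightest probe set. The 10 measured genes on each side of MYC, on chromosome 8, had a median difference of -0.05, with 4 higher and 0 lower, and the most negative of the 20 was -0.33. MYC, at -2.23, lay below all of them. They include the adjoining PVT1, a long RNA often gained together with MYC in tumours (-0.20, adjusted p = 0.531, named after its value was seen). PVT1 was dim, with a mean intensity of 29.0 in the brighter line and 23.1 in the other, beside 21.7 for the median probe set. Differences at that level are understated, so this value cannot show whether PVT1 fell as far as MYC. MGA, on chromosome 15, was above all 20 of its neighbours, whose median was 0.10 and whose highest was 1.12. MXD3, on chromosome 5, had 1 neighbour below it, and a neighbour median of -0.18 with 3 of 20 higher and 5 lower. Of the 20 neighbours of MLX, on chromosome 17, 7 were lower and 1 was higher, their median was -0.31, and 6 of them lay below MLX. Around MAX, MXD1, MXI1, MNT and MYCN the neighbour medians lay between 0.06 and 0.28.

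**Figure D3:**
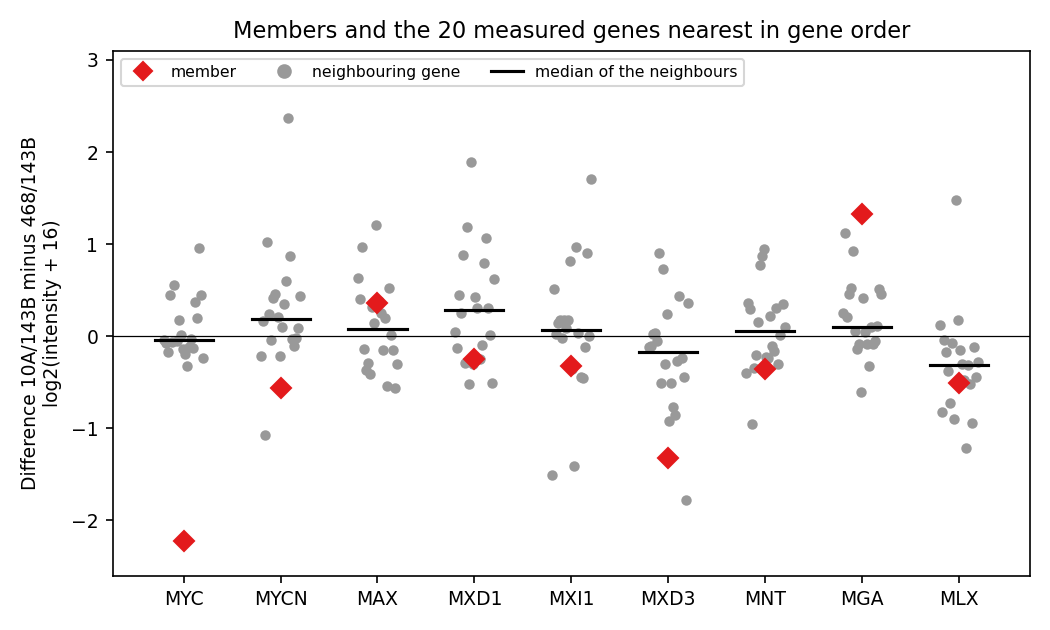
Difference (10A/143B minus 468/143B, log2(intensity + 16)) of each member gene's brightest probe set (red diamonds) and of the 20 measured genes nearest to it in gene order (grey), with a black bar at the neighbours' median. MYC lies below and MGA above all of their neighbours, and MLX lies among its own, whose median is -0.31.

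The genes whose level over the 6 arrays most resembled that of MYC were sought among the 12425 other genes at or above the median level, by the root mean square difference between profiles centred on their own means. They were ETS2, a transcription factor of the ETS family (0.0453 on the log2 scale, difference -2.27), PLAT, the tissue plasminogen activator (0.0593, -2.22) and SFTA1P (0.0808, -2.29). With 6 arrays in 2 groups, such likeness chiefly reflects a difference of equal size. A further pair of ETS2 probe sets gave -0.58 and 0.03, so the size for ETS2 depends on the probe set.

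Cofactors of the network went both ways. Beside these lists, 19.1% of all genes were higher and 14.8% lower by brightest probe set. At or above the median level, 49.1% of all probe sets passed in either direction. Of 19 coactivators that MYC binds, 5 were higher and 6 lower in 10A/143B (1 and 3 averaged), with a median of -0.02, and 3 higher and 6 lower after median centring. EP400, the helicase of the TIP60 acetyltransferase complex, was 3.04-fold higher (1.61 ± 0.24), and the acetyltransferase of that complex, KAT5, 1.78-fold lower (-0.83 ± 0.15). SMARCB1, a core subunit of SWI/SNF that binds MYC, was 2.47-fold lower (-1.31 ± 0.17). WDR5, which anchors MYC to chromatin, was -1.08 ± 0.16 on its brightest probe set and 1.13 on another that also passed, so it has no settled direction. Of 13 SIN3 and NCOR corepressor genes that the MXD proteins and MNT employ, 5 were higher and 4 lower (3 and 2 averaged). Without probe sets of the _x_at and _s_at types, 5 of 12 were higher and 0 lower (0 lower also at an unadjusted p under 0.05, limma). The 4 lower genes all stood by probe sets of those types. BRMS1 has no other, and ING1, SAP18 and SAP30 fell back on dimmer ones. This setting therefore cannot tell whether those lower calls hold. ING1 had a further probe set past the threshold as higher (0.75) and 2 as lower (-0.66 and -0.49). SAP18, whose other probe sets gave 0.35 and 0.70, had 1 of them past the threshold as higher. Neither gene thus has a settled direction. With every probe set kept, the higher genes included SUDS3 (1.27 ± 0.20), ARID4B (1.25 ± 0.11) and ING2 (0.73 ± 0.16, adjusted p = 0.0101, but 0.0541 averaged), all SIN3 subunits. BRMS1, another SIN3 subunit, was 1.87-fold lower. The values of ARID4B and ING2 also come from probe sets of the _s_at type, which that setting drops. The 3 other probe sets of ARID4B gave 0.15, -0.11 and -0.06 and did not pass. Of 13 subunits of MGA's polycomb complex, 4 were higher and 4 lower (2 and 2 averaged, 2 and 4 after median centring). CBX3, its heterochromatin protein, was 1.78-fold higher and the deacetylase HDAC2 1.57-fold higher. TFDP2, the dimer partner of E2F6, was -0.86 on its brightest probe set and 0.99 on each of 2 others past the threshold.

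Genes that act on MYC itself went both ways, beside 19.1% higher and 14.8% lower of all genes. Of 16 known to act on its transcription or on the stability of its mRNA, 5 were higher and 4 lower (3 and 1 averaged, 3 and 4 under either scaling). MAX is one of the 16. FUBP3 was 2.23-fold higher in 10A/143B (1.16 ± 0.13), and the RNA-binding proteins IGF2BP3 and HNRNPD, the one a stabiliser and the other a factor of mRNA decay, were 1.604-fold (0.68 ± 0.14) and 1.52-fold higher (0.60 ± 0.07). FUBP1, which binds an element upstream of MYC, was lower on its brightest probe set (-0.54 ± 0.09) and higher on 3 others past the threshold (1.28, 1.02 and 0.72). Of 18 genes that set the stability of MYC protein, 5 were higher and 5 lower (0 and 2 averaged), or 2 higher and 6 lower under either scaling. MAPK3, or ERK1, whose phosphorylation stabilises MYC, was 2.60-fold lower (-1.38 ± 0.17), and PLK1, which protects it from degradation, 1.85-fold lower (-0.89 ± 0.09). The ubiquitin ligase subunit BTRC was 0.88 ± 0.23 (adjusted p = 0.0187, but 0.0687 averaged) and the nucleolar deubiquitinase USP36 -0.95 ± 0.28 (adjusted p = 0.0339, but 0.104 averaged).

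The E-box that dimers of MAX recognise best is CACGTG, a palindrome that reads the same on both strands. RefSeq promoter windows of GRCh38.p14, from 250 bases before to 50 after a gene's start, were searched for it. It was in 7.26% of 35116 windows and in 10.9% of the 15384 genes that had a window and a probe set. MYC had no window and was not searched. Of the 9 members with a window 3 had it, MXD4, MNT and MLX. Sites are shown for these members, for 4 targets that were lower in 10A/143B (SLC1A5, IMP4, EXOSC5 and RRP9), for DDX21, which was higher, and for ODC1, which did not pass. These targets were chosen after their values were seen. Where a window held several, the one farthest upstream is shown. Each is the strand of its gene, 5′ to 3′, with the E-box in capitals and 12 bases on either side.

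MNT (chr17:2401236-2401265, minus strand, 193 bases before the start): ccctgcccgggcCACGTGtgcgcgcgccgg
MXD4 (chr4:2262330-2262359, minus strand, 238 before): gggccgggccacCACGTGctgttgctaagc
MLX (chr17:42567038-42567067, plus strand, 50 before): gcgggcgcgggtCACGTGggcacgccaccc
SLC1A5 (chr19:46787326-46787355, minus strand, 50 before): ggcgggagtggtCACGTGgacaggacgggg
IMP4 (chr2:130342682-130342711, plus strand, 203 before): gcggtcctaagtCACGTGtgacattctgta
EXOSC5 (chr19:41397431-41397460, minus strand, 89 before): taaacgctaagcCACGTGcggacgcccagg
RRP9 (chr3:51941892-51941921, minus strand, 5 before): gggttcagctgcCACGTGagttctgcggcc
DDX21 (chr10:68956604-68956633, plus strand, 31 before): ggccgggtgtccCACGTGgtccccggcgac
ODC1 (chr2:10448024-10448053, minus strand, 29 before): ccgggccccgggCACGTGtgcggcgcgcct

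Genes with and without the E-box had medians near 0. Of the 1672 genes that had it, 24.2% were higher and 19.3% lower in 10A/143B with a median difference of -0.02, beside 20.0%, 15.2% and -0.01 for the 13712 that did not. Among genes at or above the median level, where 1301 had the element, the shares were 30.6% higher and 24.5% lower with it and 29.6% and 22.3% without. Medians there were -0.01 with it and 0.04 without. A match describes letters in a window and is no evidence that a factor binds there.

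Known MYC targets in ribosome assembly went both ways. The 38 with a probe set split into 14 lower, 7 higher and 17 not past (7 lower and 5 higher averaged), that is 36.8% lower and 18.4% higher, beside 14.8% lower and 19.1% higher of all genes. Most listed genes were above the median level, where genes pass more often. At that level, 24.5% of genes with the E-box were lower and 30.6% higher. Of those with a window but no E-box, 22.3% were lower and 29.6% higher. The median difference of the 38 listed genes was -0.17, beside -0.02 over all genes. The lower ones included NOC4L, a ribosome assembly factor (-1.04 ± 0.20), IMP4, which processes the small subunit's RNA (-0.94 ± 0.12, with means of 646.3 in 10A/143B and 1242.6 in 468/143B), and, named for their E-boxes, RRP9 (-0.90 ± 0.16) and the exosome subunit EXOSC5 (-0.84 ± 0.10). Against these, the box C/D protein NOP58 was 1.89-fold higher (0.92 ± 0.07), as was UBTF, the factor of RNA polymerase I (0.92 ± 0.10), although its 4 other probe sets were below 0 and did not pass. NCL and NPM1, the abundant nucleolar proteins nucleolin and nucleophosmin, were singled out as classic targets after their values were seen, and were 0.44 ± 0.05 and 0.31 ± 0.04 higher. The E-box was in the windows of 16 of the 37 list genes that had one, 43.2%. Among measured list genes with a window 7 of the 15 with the element were lower and 2 higher, and 7 of the 18 without it were lower and 3 higher.

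Targets in metabolism and the cell cycle went both ways as well. The 47 with a probe set split into 12 lower, 8 higher and 27 not past (6 lower and 5 higher averaged), with a median of -0.05, and after median centring 17 were lower and 5 higher. Beside this list, 14.8% of all genes were lower and 19.1% higher. Most of the 47 were above the median level. At or above that level, 24.5% of genes with the E-box were lower and 30.6% higher. For genes with a window but no E-box these shares were 22.3% and 29.6%. The glucose transporter SLC2A1 was 2.52-fold lower (-1.33 ± 0.15), with means of 567.1 in 10A/143B and 1426.3 in 468/143B, and the inhibitor of differentiation ID2 was 2.58-fold lower (-1.36 ± 0.21). The glutamine transporter SLC1A5, named here for its E-box, was 2.03-fold lower (-1.02 ± 0.09). RIOX2, a ribosomal oxygenase, was 2.19-fold higher (1.13 ± 0.12). CUL1, a scaffold of ubiquitin ligases, was 1.20 on its brightest probe set and -1.17 on another that passed. The textbook targets ODC1 (-0.05 ± 0.06, adjusted p = 0.588) and CDK4 (-0.14 ± 0.06, adjusted p = 0.121) did not pass, with mean intensities of 1592.5 and 1168.3 in 10A/143B and 1652.8 and 1287.3 in 468/143B. They too were picked out after their values were seen.

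Genes that MYC is known to repress went both ways too. The 14 with a probe set split into 6 lower, 3 higher and 5 not past (6 lower and 2 higher averaged), that is 42.9% lower and 21.4% higher, beside 14.8% lower and 19.1% higher of all genes. At or above the median level, these shares were 24.5% and 30.6% for genes with the E-box. For genes with a window but no E-box they were 22.3% and 29.6%. The median of the 14 listed genes was -0.43, beside -0.02 over all genes. THBS1, the angiogenesis inhibitor thrombospondin, was 4.18-fold lower (-2.06 ± 0.13, means of 305.7 in 10A/143B and 1317.0 in 468/143B), the secreted chaperone CLU 4.11-fold lower (-2.04 ± 0.16) and NDRG1, a gene of differentiation and low oxygen, 2.72-fold lower (-1.44 ± 0.17). The size for THBS1 depends on the probe set, since its 4 others past the threshold gave -2.48, -1.77, -0.85 and -0.66. BCL2, the survival gene, was 1.69 on its brightest probe set and -0.93 and -0.87 on 2 others that passed. CDKN1A, the cell cycle inhibitor p21, was 0.315 ± 0.12 and did not pass (adjusted p = 0.0894, 0.3802 averaged). It passed with the replicate block (adjusted p = 0.0404), with replicate 1 as a batch term (adjusted p = 0.0176) and without replicate 1 of 10A/143B (0.45, adjusted p = 0.00251) or of both groups (0.42, adjusted p = 0.0015). CDKN1A passed in no other alternative, among them median centring (0.21, adjusted p = 0.168) and quantile normalization (0.25, adjusted p = 0.215). It is named outside the rule for list genes. CDKN1C, another cell cycle inhibitor of the list, was lower (-1.21 ± 0.12, adjusted p = 1.435e-04). The receptor PDGFRB of this list (-1.22 ± 0.15) is also among 7 fibroblast and smooth muscle markers, of which 4 were lower and 0 higher (3 and 0 averaged). These had summed intensities of 417.3 to 810.6 on 10A/143B arrays and 1281.0 to 1530.6 on 468/143B arrays, and their part in the list's shift was not tested.

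Targets of MLX and its partners were few. TXNIP, the arrestin-like brake on glucose uptake, was 1.95-fold lower in 10A/143B (-0.96 ± 0.09), on all 3 of its probe sets, whereas its relative ARRDC4 was 3.40-fold higher (1.77 ± 0.27), with means of 67.2 in 10A/143B and 7.65 in 468/143B. Both answer to MondoA in other cells, and here they went opposite ways. The lipid synthesis gene ACACA was 0.56 ± 0.13 on its brightest probe set and -1.80 on another that passed. The other 4 of the 7 measured did not pass. Beside this list, 19.1% of all genes were higher and 14.8% lower.

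**Figure D4:**
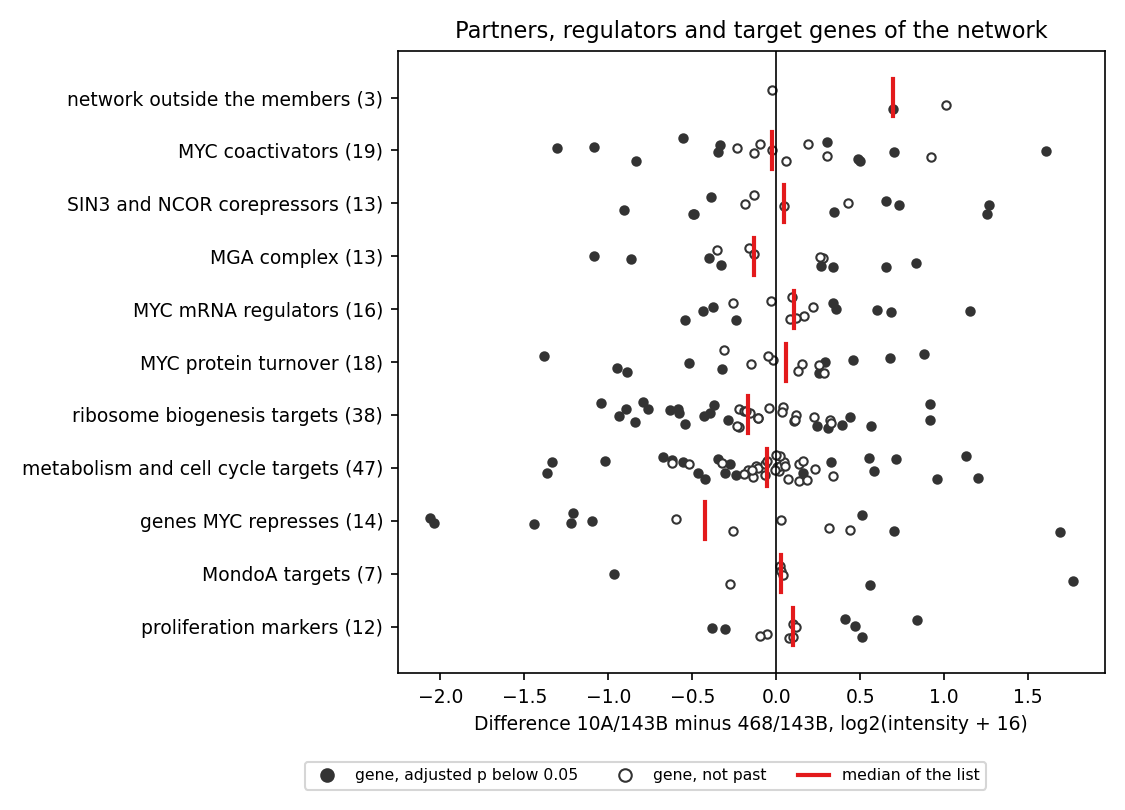
Difference (10A/143B minus 468/143B, log2(intensity + 16)) of each measured gene in lists of the network's partners, regulators and targets, filled where the adjusted p was below 0.05, with a red bar at the list's median and the number measured in brackets. The medians run from -0.17 to 0.11, except those of the genes MYC represses (-0.43) and of the 3 network genes outside the members (0.70).

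Markers of proliferation went both ways. Of 12, 4 were higher and 2 lower in 10A/143B (4 and 0 averaged). Beside these and the other marker lists, 19.1% of all genes were higher and 14.8% lower. Higher were MKI67, 1.79-fold higher (0.84 ± 0.09), CDK1 (0.51 ± 0.05), TOP2A (0.47 ± 0.08) and CCNA2 (0.41 ± 0.07). Of markers of the parent cells, 3 of 11 epithelial genes were lower and 0 higher (2 and 0 averaged), KRT8 (-1.05 ± 0.13), KRT18 (-0.34 ± 0.06) and the dim KRT19 (-0.67 ± 0.16, adjusted p = 0.0139, but 0.0762 averaged), and 7 of the 11 had means below the median level, CDH1, KRT5 and KRT14 among them. Summed epithelial intensities were 5014 to 5530 in 10A/143B and 6453 to 7041 in 468/143B. Of 9 osteoblast and mesenchymal genes 2 were lower and 1 higher (1 and 1 averaged), namely SPARC (-0.66 ± 0.06), RUNX2 (-0.23 ± 0.07, adjusted p = 0.0484, but 0.311 averaged) and SPP1 (0.62 ± 0.11). Of 6 blood and endothelial genes 1 passed, PECAM1 (0.42 ± 0.13, adjusted p = 0.0397, but 0.198 averaged). That call rests on its brightest probe set alone. The 4 other probe sets of PECAM1 were dim, with mean intensities of 1.44 to 7.72, and did not pass. PTPRC, CD3E, VWF and CDH5 had means below the median level. Whether any of these moved the members was not tested.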

How the data were processed

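The 6 arrays of 10A/143B and 468/143B were analysed from the deposited table of 1 linear intensity per probe set and array, made by the authors. How the authors summarised and scaled the intensities is not given in the sources used here. All values were exact to 0.01 on the log2 scale, and no detection calls were used. The intensities were tested as log2(intensity + 16) over 54613 probe sets, without 62 controls, by limma 3.58.1 (lmFit and eBayes with an intensity trend, R 4.3.3), with Benjamini-Hochberg adjustment at 0.05. Adjusted p-values are from that model unless an alternative is named beside them, and those are from the same limma test with the named change. Fold changes are on this scale and understate the change of dim genes.

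In the platform's annotation 41091 probe sets named a single gene, 1801 several and 11777 none, and 41037 symbols were matched to RefSeq, giving 19775 genes. A gene stands as its probe set of highest mean. Sequences are from RefSeq, GRCh38.p14. In each list, up to 4 genes past the threshold with the largest differences are named. The members and the gene lists were chosen with earlier results of these data known. The number of arrays limits the precision.

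Replicate numbers are those of the labels' source names, and the sample titles number the same arrays in another order. Deviations of same-numbered arrays correlated across the lines (0.278, 0.227 and 0.216 for numbers 1, 2 and 3, over 9187 probe sets), so the numbers were treated as pairing the arrays, from the data alone. Numbers 2 and 3 also correlated when crossed (0.257 and 0.206). The pairing entered as a block in an alternative fit. Other alternatives varied scaling, offset, filter, probe sets and arrays.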

Additional observations from a re-analysis of the deposited data

How the results depend on the processing

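MYC kept its direction and its call in all 17 alternatives that could give it a value, at -2.37 to -1.89 (adjusted p from 2.522e-06 to 6.649e-04), as did MXD3 in 17, at -1.54 to -0.93. Neither has a probe set left without the _x_at and _s_at types. Dropping those types gave 9795 calls and, among members, 1 higher and 6 lower, with 2 genes called. MAX was then -0.34 (adjusted p = 0.319), MLX 0.0207 (adjusted p = 0.974), both turned in sign on dimmer probe sets, and MGA 0.11 (adjusted p = 0.828). There, lower calls dropped to 0 among SIN3 and NCOR corepressors and MondoA targets (0 also at an unadjusted p under 0.05, limma), to 1 each among coactivators, MGA complex subunits, proliferation, epithelial and osteoblast markers, to 2 among fibroblast markers and to 3 in MYC turnover. Part of this is loss of measurement. Values were left for 12 of 13 corepressor genes, 3 of 7 MondoA targets, 7 of 11 epithelial and 5 of 9 osteoblast genes. TXNIP, the lower MondoA target, and BRMS1 had none. With replicates 2 and 3 averaged, 8609 probe sets, 2 higher and 6 lower members and 4 genes were called, and MAX (0.36, adjusted p = 0.144), MXI1 (-0.31, adjusted p = 0.117) and MNT (-0.36, adjusted p = 0.2305) were not. With 1 probe set per gene, 7042 were called, 2 members higher and 5 lower. MAX lost its call after median centring (0.25), after quantile normalization (0.26) and without the intensity trend (0.36), as did MNT without the trend (-0.35). MXD1 gained one after median centring (-0.35), after quantile normalization (-0.40), with a filter on level (-0.25), with replicate 1 as a batch term (-0.25) and without replicate 1 of both groups (-0.27), where MYCN was -1.22 (adjusted p = 0.00331). That last setting was chosen after seeing the data. Leaving out 1 array at a time gave 2 to 4 higher and 7 to 10 lower members, with MYCN at -1.13 to -0.23, MAX at 0.30 to 0.40 and MNT at -0.40 to -0.29. The replicate block, which pairs arrays of the same number, gave 16401 calls, with 4 higher and 10 lower members, and changed no other member's call than that of 234815_at of MYCN. Of 540 list counts under the alternatives, 445 stayed within 1.5 times the reported count and 95 did not. Where no cause follows from the setting itself, the cause was not tested. Signals near the lowest value of the file limit what can be said of MYCN.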
